A study of Mus musculus with 3 samples.

Results

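This report describes 36 genes of glycolysis, glucose uptake, lactate handling and glycogen synthesis, out of 36609 genes read on the arrays. Members were taken by gene name among non-control probes. For a gene with several probes, the one called well above background by the scanner software on the largest number of arrays stands for it, and ties went to the higher mean log2 signal. By that rule 35 members were measured on all 3 arrays, and Pdk4 was not well above background on any. The cells came from the spleen of the MRL/MpJ strain, which has an intact Fas gene (male, 6 months of age), with red cells lysed, and had 3 h of contact in 500 µL of medium per well. One sample received PBS, another the pooled urine of 6 male MRL/MpJ donors, and the last the pooled urine of 6 male MRL/MpJ-Faslpr/lpr donors (lpr urine below), all donors being 6 months old. The latter strain lacks functional Fas. The protocol speaks of the spleen of 1 mouse and does not say whether it served all samples. Urine was spun and passed through a 0.22 µm filter, and the labels give neither its share of the medium nor its composition. There was 1 array per condition, so no value has a replicate, no p-value can be given, and every difference describes these 3 arrays.

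Glycolysis turns glucose into pyruvate in the cytosol. Hexokinase traps glucose, phosphofructokinase commits it to breakdown, and the lower steps from glyceraldehyde phosphate to pyruvate yield ATP. Lactate dehydrogenase regenerates the NAD+ that the pathway uses, and monocarboxylate transporters carry the lactate out, while pyruvate dehydrogenase kinases hold pyruvate back from mitochondria. Many steps have several isoenzymes that differ between tissues, and in lymphocytes and phagocytes activation and low oxygen are known to raise the inducible ones through HIF-1 and Myc.

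Signals are background-subtracted intensities in arbitrary brightness units. A difference is the log2 ratio of 2 arrays after each was divided by the 75th percentile of its probes, which was 157.5 intensity units for PBS, 86.6 for MRL/MpJ urine and 75.7 for lpr urine. The urine arrays were thus dimmer before scaling, and an unscaled signal that is lower on them need not be lower after scaling. The words higher and lower, used as a count, mean a difference of at least 2-fold in a gene that was well above background on each array compared. Repeated spots of 1 probe gave a difference a median SD of 0.06 on the log2 scale, 0.11 where the dimmer log2 signal was 5 to 8 and 0.23 where it was below 5. That spread covers spots within arrays only, and no spot of any probe was saturated. Both comparisons with PBS use the same PBS array, so their values are given side by side. The cells were not sorted, so fewer cells of a type and less RNA per cell cannot be told apart.

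With MRL/MpJ urine, 16 of the 35 measured members were at least 2-fold lower than with PBS, 3 were at least 2-fold higher and 16 lay within 2-fold. Over all 19639 genes measured on both arrays, 11.1% were lower and 16.9% higher by that measure. The members' median difference was -0.89, against 0.13 over all genes. With lpr urine, 17 members were lower, 3 were higher and 15 lay within 2-fold, with a median of -0.91. Over the 19368 genes measured on both of those arrays, 12% were lower and 18.5% higher, with a median of 0.15. At 1.5-fold, 21 members were lower and 4 higher with MRL/MpJ urine (22.5% and 31.2% of all genes), and 23 and 4 with lpr urine (22.9% and 33.4%). At 4-fold, 8 were lower and 1 higher with MRL/MpJ urine (1.98% and 5.14% of all genes), and 9 and 0 with lpr urine (2.23% and 5.53%). The members spread widely, from -4.22 to 2.01 with MRL/MpJ urine and from -5.47 to 1.82 with lpr urine. Of the 35 members, 7 lay below the 1st percentile of all genes and 12 below the 5th in each comparison.

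**Figure D1:**
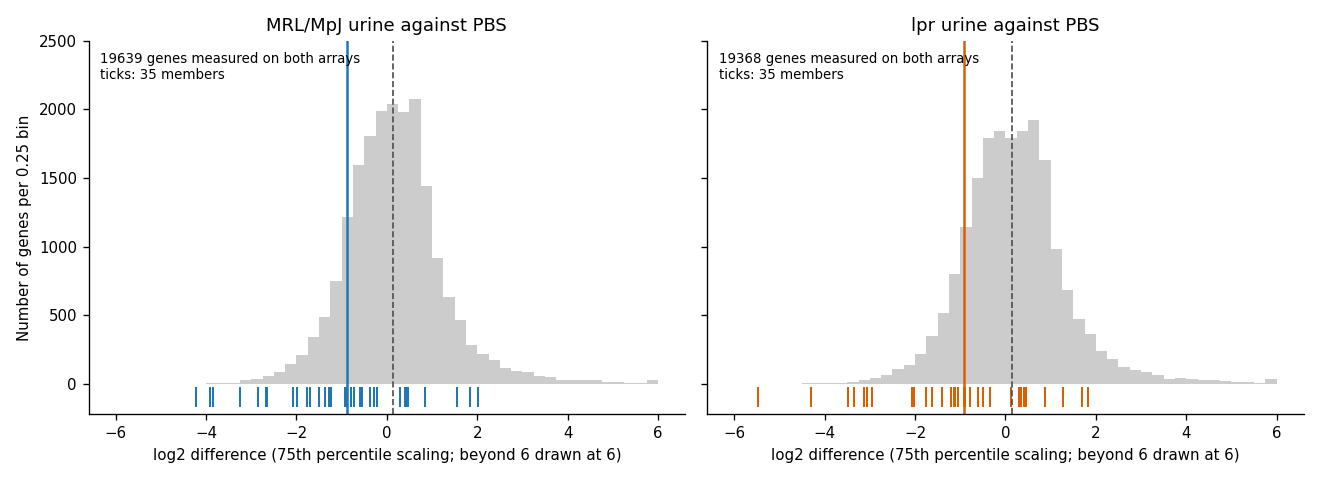
Number of genes (y axis) by log2 difference (x axis) for MRL/MpJ urine against PBS and lpr urine against PBS, over all genes measured on both arrays. Coloured ticks under the axis are the 35 measured members, the dashed line is the median of all genes (0.13 and 0.15) and the coloured line the members' median (-0.89 and -0.91).

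Among the sugar transporter members, Slc2a1 and Slc2a6 were at least 2-fold lower in both comparisons. Slc2a1, the gene of the widespread glucose transporter GLUT1, read 3135 intensity units with PBS, 271 in MRL/MpJ urine and 195 in lpr urine. The PBS array was the high one, and after scaling Slc2a1 was 6.36-fold lower with MRL/MpJ urine (-2.67) and 7.74-fold lower with lpr urine (-2.95). Slc2a6, the gene of the sugar transporter GLUT6 that is abundant in leukocytes, read 2048, 119 and 87.8, and was 9.47-fold and 11.2-fold lower. Slc2a3, the gene of the high-affinity transporter GLUT3, read 1520.0, 456 and 393 and differed by -0.87 and -0.90, so it stayed within 2-fold on its chosen probe, though with normexp background correction it was just past 2-fold lower (-1.02 and -1.06).

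The 3 hexokinase genes did not move together. Hk2, the inducible hexokinase gene, read 412 with PBS and was dim on the urine arrays, at 15.7 (MRL/MpJ) and 19.4 (lpr). It was 14.4-fold lower with MRL/MpJ urine (-3.85) and 10.2-fold lower with lpr urine (-3.36). With normexp background correction the differences were smaller, at -2.19 and -2.0. Hk1, the constitutive hexokinase gene, read 20002, 15199 and 13142, and its differences were 0.47 and 0.45. Hk3, the hexokinase gene of myeloid cells, read 427, 158 and 146 and differed by -0.57 and -0.49. Both stayed within 2-fold while Hk2 did not. Gpi1, whose product turns glucose 6-phosphate into fructose 6-phosphate, also stayed within 2-fold, with 15703, 7088 and 5962 intensity units and differences of -0.29 and -0.34.

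At phosphofructokinase, the liver and platelet subunit genes were lower and the muscle subunit gene was not. Pfkl, the liver subunit gene, read 2636, 514 and 408 and was 2.82-fold and 3.11-fold lower with MRL/MpJ and lpr urine. Pfkp, the platelet subunit gene, read 4111, 572 and 483 and was 3.95-fold and 4.09-fold lower. Pfkm, the muscle subunit gene, read 70.7, 70.0 and 62.4, so its unscaled signal hardly differed between arrays, and its scaled differences were 0.85 and 0.88.

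The Pfkfb genes encode the enzymes that make and remove fructose 2,6-bisphosphate, the main activator of phosphofructokinase. Pfkfb3, the inducible form with the strongest kinase activity, read 1346, 315 and 282 and was 2.35-fold and 2.29-fold lower, the only one of the 4 past 2-fold in either comparison on its chosen probe. Its second probe gave -0.65 and -1.04. Pfkfb1 differed by -0.58 and -0.89, Pfkfb2 by -0.37 and -0.35, and Pfkfb4 by 0.44 and 0.40.

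The aldolase step splits fructose bisphosphate into triose phosphates. Aldoa, the main aldolase gene of most tissues, read 51829.9 intensity units with PBS, 11678 in MRL/MpJ urine and 9345 in lpr urine, and was 2.44-fold and 2.67-fold lower (-1.29 and -1.41), against -1.97 and -2.11 after quantile normalisation. Aldoc, best known from brain, was read by a probe with 9 usable spots per array, which averaged 230.4, 66.6 and 51.1. Its spot-to-spot SD was 0.04, 0.10 and 0.09 on the log2 scale on the 3 arrays, and its differences were -0.93 and -1.12, just inside and just outside 2-fold, and the latter was -0.72 with normexp.

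Among the triose phosphate enzymes, Tpi1 and Pgk1 were lower, while the call for Gapdh depended on the scaling. Tpi1, which interconverts the triose phosphates, read 8373, 738 and 483, and was 6.24-fold and 8.34-fold lower. Pgk1, which makes the first ATP of the pathway, read 26581, 3461 and 3031 and was 4.22-fold lower in each comparison. Gapdh, often used as a reference gene, read 22033, 6541 and 6156, and its differences were -0.89 and -0.78. Its 6 measured probes spanned -0.94 to -0.72 with MRL/MpJ urine and -0.86 to -0.56 with lpr urine, so every Gapdh probe lay below 0 and none reached 2-fold. Under other scalings the chosen probe was past 2-fold lower, at -1.45 and -1.39 after quantile normalisation, -1.18 and -1.13 with normexp, and -1.79 and -1.78 with spike-ins.

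The phosphoglycerate mutase genes moved in opposite directions. Pgam1, the form of most tissues, was read by a probe with 9 usable spots per array that averaged 8609.8, 653 and 475. It was 7.26-fold and 8.72-fold lower (-2.86 and -3.12), with spot-to-spot SDs of 0.05, 0.05 and 0.08. Its other probe gave -2.82 and -3.1. Pgam2, the muscle form, was near background at 6.90, 15.3 and 11.7, lowest with PBS, and was 4.04-fold and 3.52-fold higher. At so low a signal the size is uncertain, and normexp background correction gave 0.81 and 0.84 in place of 2.01 and 1.82.

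At enolase, the member with the lowest difference in lpr urine was Eno2, the gamma enolase gene best known from neurons and also induced by low oxygen. It read 652 with PBS, 23.7 in MRL/MpJ urine and 7.07 in lpr urine. It was 15.1-fold lower with MRL/MpJ urine (-3.92) and 44.3-fold lower with lpr urine (-5.47), and with normexp background correction these were -2.46 and -2.67. Eno1, the alpha enolase gene of most cells, read 20572, 3484 and 2919 and was 3.25-fold and 3.39-fold lower. Eno3, the muscle form, read 581, 421 and 343, with differences of 0.40 and 0.29. Pkm, the pyruvate kinase gene that closes the pathway, read 14701, 4910.2 and 4600.1 and differed by -0.72 and -0.62, within 2-fold, but was past it at -1.19 and -1.13 after quantile normalisation and at -1.62 in both comparisons with spike-ins.

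Among lactate genes was Slc16a3, the member with the lowest difference in MRL/MpJ urine. Slc16a3 encodes MCT4, the lactate exporter of strongly glycolytic cells. It read 3442, 102 and 83.6, so PBS stood far above both urines, and was 18.6-fold lower (-4.22) and 19.8-fold lower (-4.31). Slc16a1, the gene of the transporter MCT1, read 655, 139 and 151 and was 2.59-fold and 2.08-fold lower. Ldha, the subunit that favours making lactate, read 35808, 5809 and 5064 and was 3.39-fold and 3.40-fold lower. Ldhb, the subunit that favours using lactate, read 309, 497 and 479.9. It was higher on both urine arrays even before scaling, and 2.93-fold and 3.24-fold higher after it. With spike-ins it was 0.66 and 0.70 on the log2 scale, within 2-fold.

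**Figure D2:**
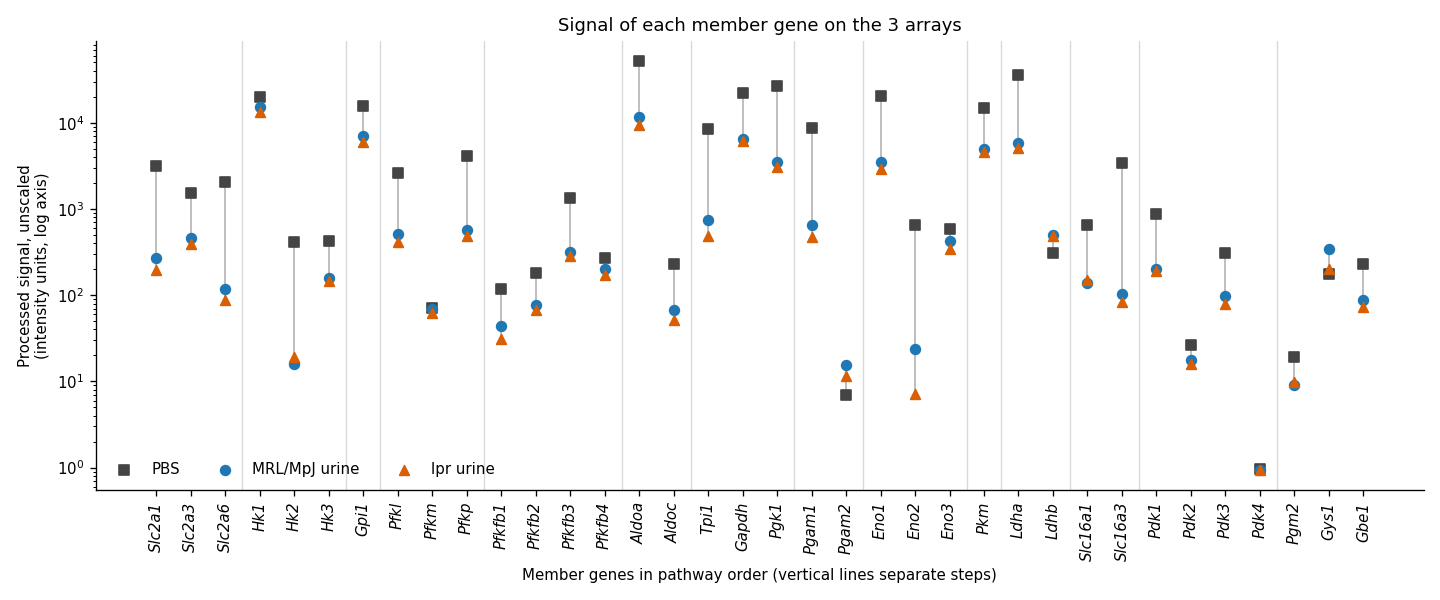
Unscaled processed signal in intensity units (log y axis) of each member's chosen probe on the PBS array (squares), the MRL/MpJ urine array (circles) and the lpr urine array (triangles), with members in pathway order on the x axis and 1 array per condition. Most squares lie above the other symbols, as for Slc16a3 (3442 against 102 and 83.6), whereas Ldhb, Gys1 and Pgam2 are lowest with PBS; heights of different genes are not comparable.

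Pyruvate dehydrogenase kinases switch off pyruvate entry into the citric acid cycle. Pdk1, a HIF-1 target, read 868, 203 and 189 and was 2.35-fold and 2.21-fold lower. Pdk3 read 310.2, 98.9 and 79.2 and differed by -0.79 and -0.91. Pdk2, dim at 26.5, 17.9 and 16.1, had differences of 0.30 and 0.34. Pdk4, a kinase of fasting, read 0.96, 0.95 and 0.95 and was not well above background on any array, so no difference was formed.

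Of the glycogen genes, Gys1 was higher and the others stayed within 2-fold. Gys1, the glycogen synthase gene outside liver, read 174, 343 and 202, highest in MRL/MpJ urine, and was 3.59-fold and 2.42-fold higher. It was within 2-fold with spike-ins (0.95 and 0.28), and in lpr urine with normexp (0.87). Gbe1, the branching enzyme gene, read 231, 87.3 and 72.3 and differed by -0.54 and -0.62, although its lowest probe gave -1.5 with MRL/MpJ urine. Pgm2, a phosphopentomutase and minor phosphoglucomutase gene, was dim at 18.9, 9.0 and 9.89, with differences of -0.21 and 0.12.

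**Figure D3:**
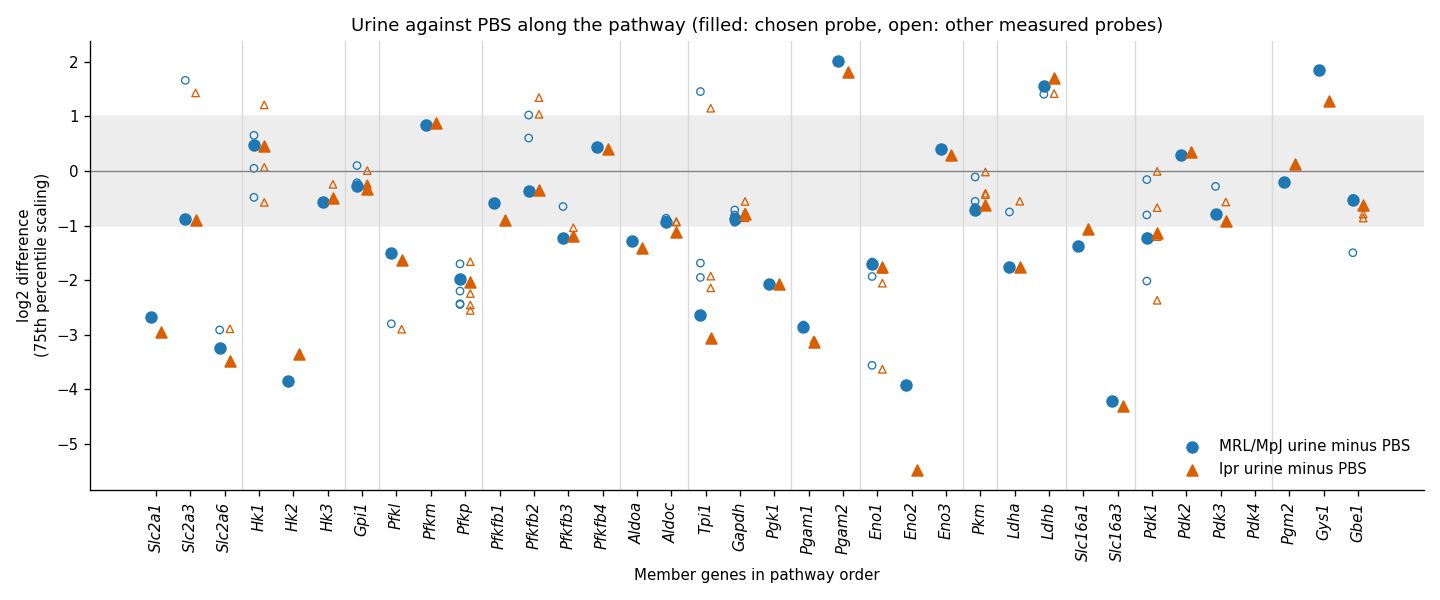
Log2 difference against PBS (y axis, 75th percentile scaling) of each member along the pathway (x axis) for MRL/MpJ urine (circles) and lpr urine (triangles). Filled symbols are chosen probes, open ones the gene's other measured probes, and the grey band marks 2-fold; Eno2 and Slc16a3 are lowest and Pgam2, Gys1 and Ldhb highest.

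To compare isoenzymes within 1 step, the difference against PBS of 1 chosen probe was subtracted from that of another. Such a gap compares shifts from PBS and not levels. Below, a gene that stood above another had the higher difference against PBS, whatever its signal. These gaps do not change when an array is scaled by a single factor, but they do change with background correction and quantile normalisation. By this measure Pgam2 stood above Pgam1 by 4.87 on the log2 scale in MRL/MpJ urine and by 4.94 in lpr urine, and with normexp by 3.83 and 4.17. The gap of Hk1 over Hk2 was 4.32 and 3.81, a 19.9-fold and 14-fold unequal shift, and it was 3.72 and 3.17 after quantile normalisation and 2.39 and 2.12 with normexp. Eno3 stood above Eno2 by 4.31 and 5.76, but with normexp by 2.61 and 2.68, so the wider gap in lpr urine did not hold there. Eno3 stood above Eno1 by 2.10 and 2.05, and by 2.72 and 2.70 after quantile normalisation. Ldhb stood above Ldha by 3.31 and 3.46, a 9.94-fold and 11-fold shift, and by 3.95 and 4.11 after quantile normalisation. Slc16a1 stood above Slc16a3 by 2.84 and 3.25, and Pfkm above Pfkp by 2.83 and 2.91. Other pairs were close: Aldoa and Aldoc were 0.36 and 0.30 apart (1.06 and 1.0 after quantile normalisation, 0.91 and 1.03 with normexp), Pfkl and Pfkp 0.49 and 0.40, and Pdk1 and Pdk3 0.45 and 0.23.

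Chosen probes of isoenzymes were compared with each other, not with the transcripts of the other isoenzymes. The 60-base probes of the most opposed pairs are printed below, 5′ to 3′ and on the strand of the transcript, as the deposited files give them with mm9 positions. The longest run of bases shared within each of the pairs Hk1 and Hk2, Pgam1 and Pgam2, Eno2 and Eno3, and Ldha and Ldhb was 5. Whether a probe also binds the transcript of the other isoenzyme was not tested.
Hk1, chr10:61731230-61731288, minus strand: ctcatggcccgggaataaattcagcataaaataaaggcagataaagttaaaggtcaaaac
Hk2, chr6:82675056-82675115, minus strand: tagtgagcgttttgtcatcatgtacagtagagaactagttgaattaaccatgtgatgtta
Pgam1, chr19:41992898-41992957, plus strand: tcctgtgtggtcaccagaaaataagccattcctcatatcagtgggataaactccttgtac
Pgam2, chr11:5701648-5701707, minus strand: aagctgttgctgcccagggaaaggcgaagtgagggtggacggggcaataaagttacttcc
Eno2, chr6:124710388-124710447, minus strand: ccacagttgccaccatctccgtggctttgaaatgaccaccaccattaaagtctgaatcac
Eno3, chr11:70475953-70476012, plus strand: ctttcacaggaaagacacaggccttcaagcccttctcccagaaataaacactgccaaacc
Ldha, chr7:54110937-54110996, plus strand: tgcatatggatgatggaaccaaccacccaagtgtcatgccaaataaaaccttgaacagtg
Ldhb, chr6:142438829-142438888, minus strand: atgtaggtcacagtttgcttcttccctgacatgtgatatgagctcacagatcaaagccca
All 35 chosen probes whose gene has a strand in the RefSeq promoter table lie on that strand, and Slc2a3 has no entry there.

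Where a member had several measured probes, most had the same sign. Of 20 such members, 15 had all probes on 1 side of 0 in each comparison with PBS, and the median range between the probes of a gene was 0.68 (MRL/MpJ) and 0.60 (lpr). All 5 Pfkp probes, all 4 Eno1 probes, both measured Pfkl probes and both measured Slc2a6 probes were at least 2-fold lower in each comparison. Both Ldhb probes were at least 2-fold higher, at 1.55 and 1.40 with MRL/MpJ urine. Eno1 ranged from -3.56 to -1.67 with MRL/MpJ urine and Pdk1 from -2.02 to -0.16, so the size of the difference depended on the probe. The second Ldha probe differed by -0.75 and -0.55, within 2-fold.

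The 5 members whose probes lay on both sides of 0 were Slc2a3, Hk1, Gpi1, Pfkfb2 and Tpi1. For Slc2a3 the dim second probe, which read 53.9, 93.6 and 69.8, gave 1.66 and 1.43 against -0.87 and -0.90 on the chosen one. For Tpi1, 3 probes were at least 2-fold lower, whereas the last, dim at 29.7, 44.7 and 31.6 and designed to an Ensembl transcript, gave 1.45 and 1.15. Hk1 spanned -0.48 to 0.65 with MRL/MpJ urine, Gpi1 -0.29 to 0.10 and Pfkfb2 -0.37 to 1.02. With lpr urine these ranges were -0.58 to 1.21, -0.34 to 0.01 and -0.35 to 1.34. The lowest Hk1 probe read 1362, 536 and 439, and the highest was dim at 8.76, 7.57 and 9.74. The highest Pfkfb2 probe was also dim, at 11.8, 13.2 and 14.4. The opposed probes of Slc2a3 and Tpi1 are shown because the call of Slc2a3 turns on which one is read, the chosen probe first in each gene. The second Slc2a3 probe spans 834 bases of genome with its 60 letters.
Slc2a3, chr6:122678075-122678134, minus strand: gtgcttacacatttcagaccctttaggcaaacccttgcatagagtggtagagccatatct
Slc2a3, chr6:122681586-122682419, minus strand: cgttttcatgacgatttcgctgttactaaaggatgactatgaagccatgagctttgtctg
Tpi1, chr6:124760947-124761006, minus strand: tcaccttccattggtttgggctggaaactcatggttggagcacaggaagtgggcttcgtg
Tpi1, chr6:124761622-124761681, minus strand: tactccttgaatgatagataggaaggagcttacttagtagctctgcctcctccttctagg

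Set directly against each other, the urine arrays differed little in these genes. With lpr urine, 1 of 35 members was at least 2-fold lower than with MRL/MpJ urine and 0 were higher, where 0.06% and 0.34% of the 20012 genes measured on both arrays were. The members' median difference was -0.05, 26 of the 35 lay within 0.25 of 0 and 33 within 0.5. At 1.5-fold the counts were also 1 and 0 (1.03% and 2.32% of all genes), and at 4-fold 0 and 0 (0.015% and 0.035%). The member past 2-fold was Eno2, at -1.55, the 4th lowest of all genes. Its signal of 7.07 in lpr urine is near 4.43, the dimmest signal still called well above background on that array. With normexp background correction the difference was -0.21. Gys1 followed with -0.57, from 343 to 202 intensity units, and Tpi1 with -0.42, while Hk2 was the highest at 0.49, from 15.7 to 19.4. The Gys1 gap is several times the spot-to-spot SD of 0.11 for signals of that brightness, whereas that of Hk2 is about 2 times the SD of 0.23. Each of these genes was read by 1 spot per array, so the SDs come from other probes. They cover spots within arrays and not the spread between samples. How far such gaps recur between wells of 1 urine was not tested.

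The scale between arrays set how many members counted as lower. Under scaling by 8 E1A spike-ins, synthetic transcripts added at labelling, the median of all genes moved by -0.90 in MRL/MpJ urine and by -1.0 in lpr urine, and under quantile normalisation by -0.11 and -0.13. With spike-ins 27 members were at least 2-fold lower and 1 higher with MRL/MpJ urine, and 26 lower and 0 higher with lpr urine. Over all genes 40.5% and 44.4% were lower and 5.66% and 5.54% higher by that scaling. Under all 5 scalings tried, 16 members remained at least 2-fold lower with MRL/MpJ urine, namely Slc2a1, Slc2a6, Hk2, Pfkl, Pfkp, Pfkfb3, Aldoa, Tpi1, Pgk1, Pgam1, Eno1, Eno2, Ldha, Slc16a1, Slc16a3 and Pdk1. With lpr urine 15 did, the same list without Slc16a1, which was -0.96 after quantile normalisation. The share of all genes that were lower under every scaling was not counted. Ldhb, Gys1 and Pgam2 stayed above 0 in both comparisons under all 5, but 0 of them stayed 2-fold higher throughout. Hk1, Pfkm, Pfkfb4, Eno3 and Pdk2 were above 0 under the main scaling and below 0 under spike-in scaling in both comparisons, so they have no settled direction.

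**Figure D4:**
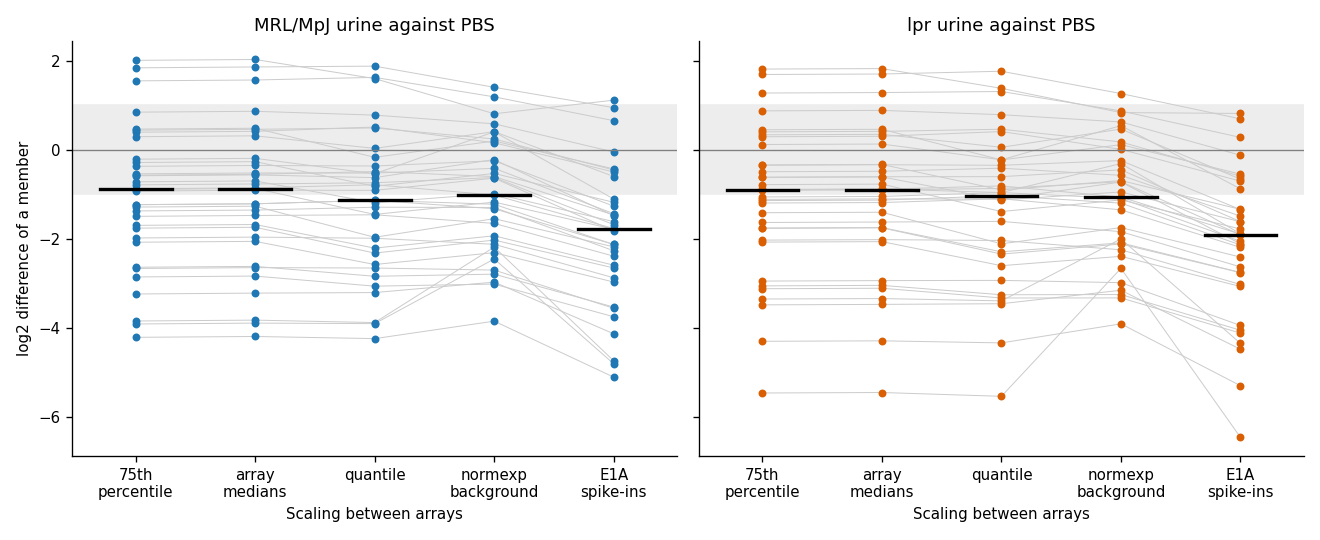
Log2 difference of each measured member (points, joined by grey lines) under 5 scalings between arrays (x axis), for MRL/MpJ urine and lpr urine against PBS; black bars are medians and the grey band marks 2-fold. The medians move from -0.89 to -1.79 and from -0.91 to -1.91 between 75th percentile and spike-in scaling.

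Of 9 lists of neighbouring genes, 8 had a median above that of the members in each comparison, and the hypoxia targets lay below it. The genes of pyruvate entry and the citric acid cycle, the route that takes glycolytic pyruvate into mitochondria, had 4 of 27 measured members lower and 0 higher with MRL/MpJ urine, and 5 and 0 with lpr urine (medians -0.18 and -0.22), where 11.1% and 12% of all genes were lower. The largest differences there were at the gate: Pdp1, the phosphatase that undoes the work of the Pdk kinases, read 131, 14.8 and 8.64 (-2.28 and -2.87), Mpc1, a subunit of the mitochondrial pyruvate carrier, differed by -1.45 and -1.52, and Pdhx by -1.17 and -1.53. The pentose phosphate pathway had 1 of 10 lower and 0 higher in each comparison (medians -0.23 and -0.35), the one being Prps1 at -1.11 and -1.18, so its count of lower genes is close to the share over all genes. Gluconeogenic and opposing enzymes had 0 of 4 measured members past 2-fold, with Tigar at -0.86 and -0.62.

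Glycogen and hexosamine genes had 2 of 18 lower and 5 higher in each comparison (medians 0.15 and 0.20). Over all genes 11.1% and 12% were lower and 16.9% and 18.5% higher, so the count of lower genes is close to that share. Ppp1r3d, a subunit that targets a phosphatase to glycogen, was higher by 2.71 and 3.1, and Epm2a, the glycogen phosphatase laforin, by 1.41 and 2.18. Gfpt1, the entry enzyme of the hexosamine pathway, differed by -1.55 and -1.79. Among 10 other measured sugar and monocarboxylate transporters 3 were lower and 2 higher, the latter count being near the share over all genes. Slc16a10, an aromatic amino acid transporter, was higher by 4.46 and 4.06, and Slc16a7, the gene of MCT2, by 2.67 and 2.04 from a PBS signal of 4.77 near background. Emb, an accessory subunit of monocarboxylate transporters, differed by -1.55 and -1.31. Bsg, which carries MCT1 and MCT4 to the membrane and is named after its values were seen, read 705, 180.1 and 166 and was 2.15-fold and 2.04-fold lower.

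Against 11.1% and 12% of all genes lower and 16.9% and 18.5% higher, other isoenzymes of the pathway had 2 of 7 members lower and 0 higher. These were the phosphoglucomutase genes Pgm1, at 1767, 303 and 246 (-1.68 and -1.79), and Pgm2l1 (-1.53 and -1.27). The isoenzyme genes Pklr, Pgk2 and Gapdhs were not well above background on any array. Hkdc1, a hexokinase-like gene named after its values were seen, was measured on the urine arrays alone, at 25.3 and 24.1 against 1.00 with PBS. It was at least 10.3-fold and 11.2-fold higher if its PBS signal is taken as at most 4.47, the dimmest signal called well above background there. That signal is not a fixed cutoff, as Fbp1 read 4.69 with PBS and was not called. Ldhc, the testis lactate dehydrogenase gene, also named after its values were seen, read 66.6 and 61.8 on the urine arrays and was not well above background with PBS (4.22), which makes it at least 27.1-fold and 28.8-fold higher by the same bound.

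Over all genes 11.1% and 12% were lower and 16.9% and 18.5% higher with MRL/MpJ and lpr urine. The branches that lead from glycolysis to glycerol and serine had 3 of 8 lower and 0 higher in each comparison (medians -0.75 and -0.88). The lower ones were Psat1 (-1.74 and -1.76), an enzyme of serine synthesis, and the folate-coupled serine enzymes Shmt1 (-2.40 and -2.58) and Shmt2 (-1.27 and -1.32). Shmt1 read 70.8, 7.39 and 5.68, near background on the urine arrays, so its size is uncertain. Hypoxia targets outside glycolysis had 10 of 17 lower and 1 higher (medians -1.75 and -1.80). Hilpda, a lipid droplet gene, differed by -4.43 and -5.06, and the mitophagy gene Bnip3 by -2.90 and -3.01. Egln3, an oxygen-sensing hydroxylase gene, differed by -3.98 and -4.12. It read 271.8, 9.50 and 7.52, near background on the urine arrays, so its size is uncertain. The higher one, named after its values were seen, was the angiogenic factor gene Vegfa, which read 234, 520.4 and 326 and was 4.05-fold and 2.90-fold higher. Among factors that control glycolytic genes, 5 of 14 were lower and 2 higher, the latter count being near the share over all genes. The HIF inhibitor gene Hif1an read 105.5, 14.2 and 7.17, near background in lpr urine, and differed by -2.03 and -2.82. Epas1 differed by -1.77 and -1.60 and Vhl by -1.54 and -1.70. Hif1a, named after its values were seen, read 1505, 368 and 307 and differed by -1.17 and -1.24. Spike-in scaling moves every value of these lists lower by the shifts given above and takes the positive medians of glycogen and hexosamine below 0.

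**Figure D5:**
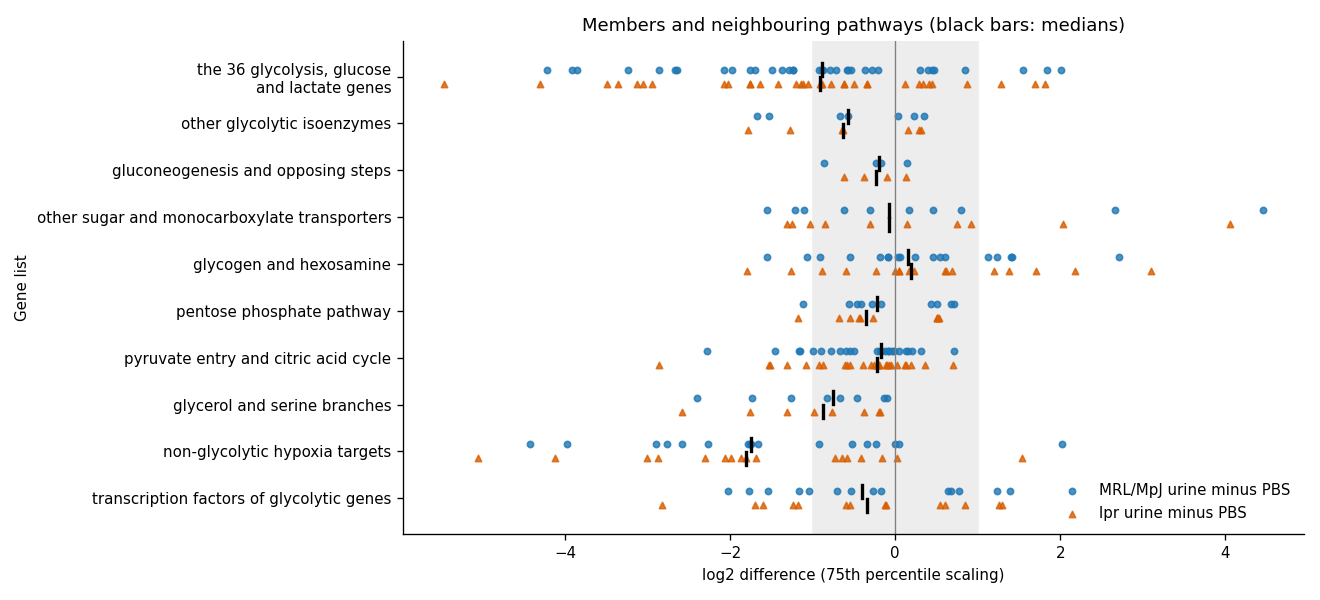
Log2 difference against PBS (x axis, 75th percentile scaling) of the 35 measured members and of the measured genes of 9 neighbouring lists (y axis), with circles for MRL/MpJ urine, triangles for lpr urine, black bars for medians and a grey band for 2-fold. The medians of the members (-0.89 and -0.91), of glycerol and serine branches (-0.75 and -0.88) and of the hypoxia targets (-1.75 and -1.80) lie furthest left.

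Promoters of the members were searched for the core letters that hypoxia-inducible factors bind. RefSeq promoter windows on GRCm38.p6 matched 35 of the 36 members, 54 windows in all, and the 250 bases before each start were searched for ACGTG and GCGTG on both strands. At least 1 window with either motif was found for 29 of 35 members (82.9%), against 41.5% of the 27025 genes with a window. A count by gene favours genes with more windows, and the members had 54 windows for 35 genes, against 32851 for 27025. Counted by window, the shares were 72.2% of member windows and 38.6% of all windows. The letters CACGTG, which contain ACGTG on both strands, were found for 6 members (17.1%) against 6.86% of all genes. Member windows were richer in G and C, with a median of 59.0% against 52.4%, and these motifs hold mostly G and C, so the shares are not like for like. Of 28 measured members with a core motif, 14 were at least 2-fold lower and 1 higher with MRL/MpJ urine (median -1.08). With lpr urine 15 were lower and 1 higher (median -1.09). Of the 6 without, 2 were lower and 2 higher in each comparison (medians -0.41 and -0.48). Over all genes, with or without a motif, 11.1% and 12% were lower and 16.9% and 18.5% higher. Those shares were not split by motif, so the part of the motif in the members' counts was not tested. A match of letters is a description and does not show binding.

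Windows are shown for 3 of the members that were lower under every scaling, and for Eno2, the lowest member with lpr urine, with ACGTG and GCGTG on either strand in capitals and the sequence given 5′ to 3′ on the strand of the gene. Slc16a3 holds 2 matches close to its start and Pgk1 holds 2. Ldha holds 5, of which 4 are the opposite strands of 2 CACGTG words. The window of Eno2 holds 0.
Slc16a3, chr11:120948817-120949066, plus strand: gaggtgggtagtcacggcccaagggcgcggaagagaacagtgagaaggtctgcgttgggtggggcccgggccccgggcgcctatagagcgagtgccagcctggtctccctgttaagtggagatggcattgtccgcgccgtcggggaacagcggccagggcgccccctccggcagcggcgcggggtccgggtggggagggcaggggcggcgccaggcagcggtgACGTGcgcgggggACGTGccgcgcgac
Pgk1, chrX:106186850-106187099, plus strand: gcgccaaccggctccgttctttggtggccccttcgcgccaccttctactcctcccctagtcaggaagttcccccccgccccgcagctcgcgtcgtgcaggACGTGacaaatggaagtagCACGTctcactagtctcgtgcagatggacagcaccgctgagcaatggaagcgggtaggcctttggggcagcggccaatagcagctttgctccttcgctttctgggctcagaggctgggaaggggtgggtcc
Ldha, chr7:46845554-46845803, plus strand: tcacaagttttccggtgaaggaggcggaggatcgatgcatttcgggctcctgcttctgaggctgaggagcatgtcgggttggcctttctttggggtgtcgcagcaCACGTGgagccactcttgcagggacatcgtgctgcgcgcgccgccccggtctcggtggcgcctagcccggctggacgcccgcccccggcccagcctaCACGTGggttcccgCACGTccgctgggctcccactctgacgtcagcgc
Eno2, chr6:124769674-124769923, minus strand: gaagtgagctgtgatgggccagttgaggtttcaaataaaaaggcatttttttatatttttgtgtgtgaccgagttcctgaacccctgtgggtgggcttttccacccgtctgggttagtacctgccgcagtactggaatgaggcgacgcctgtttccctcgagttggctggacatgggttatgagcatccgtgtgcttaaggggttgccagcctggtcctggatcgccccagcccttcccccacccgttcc

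Markers of spleen cells were measured on every array, as the label of the tissue asks. All 9 B cell, 8 T cell, 10 monocyte and macrophage and 10 neutrophil markers on the array were well above background on all 3 arrays, and 8 of 9 erythroid ones were, Epb42 being the exception. As multiples of the 75th percentile, the summed signal of the B cell markers was 226, 442 and 416 in PBS, MRL/MpJ urine and lpr urine. Neutrophil markers summed to 449, 866 and 858, monocyte and macrophage markers to 59.4, 100.5 and 88.5, T cell markers to 309, 311 and 330, and erythroid markers to 13.8, 22.4 and 23.4. The divisor was 157.5, 86.6 and 75.7 intensity units, so a sum can rise without a brighter unscaled signal. Spike-in scaling moves every marker difference against PBS by -0.90 (MRL/MpJ) and -1.0 (lpr), so these sums do not settle the share of any cell type. With MRL/MpJ urine 4 of 9 B cell and 5 of 10 monocyte and macrophage markers were at least 2-fold higher. So were 2 of 10 neutrophil and 1 of 8 erythroid markers, and 0 markers of these lists were lower. Of 8 T cell markers, 1 was lower and 0 higher. With lpr urine 3 of 9 B cell markers were higher, and the other counts were the same. Over all genes 16.9% and 18.5% were higher and 11.1% and 12% lower with MRL/MpJ and lpr urine. The neutrophil, erythroid and T cell counts are near those shares. Of 10 markers of urinary tract epithelium 4 were measured, summing to 0.59, 0.81 and 0.97, and Upk1b, Upk2, Upk3a, Krt5, Krt19 and Umod were not well above background on any array. The part of these marker levels in the members' differences was not tested.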

How the data were processed

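Members and gene lists were chosen with earlier results of these data known. The 3 deposited files are scanner output of single-colour Agilent arrays (design 074809), read, per the file headers, with Feature Extraction 12.0.3.1, the tool and version also named in the submitters' processing notes. The deposited values are intensity: the processed signal had background subtracted and was detrended by the authors' software within each array, per the file headers. It was not normalised between arrays. Total RNA of 0.05 µg per sample was labelled, per the labels' protocols.

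Each array had 62976 spots, 59305 of them not controls. Flagged spots were dropped, and spots of a probe were averaged on the log2 scale, which left 56599 probes. To obtain levels, the 75th percentile of an array was subtracted from its log2 signals. Named genes were all 36 members and, from each of 9 pathway lists, at most the 3 largest differences against PBS, with additions marked. Alternatives were other scalings, normexp background correction with an offset of 50 (limma 3.58.1 in R 4.3.3), all probes of a gene, filters on dim probes, and other folds. With 1 array per group no test was run, and the precision is limited by the number of arrays. The calls were tested on simulated data, with known folds in a small part of the genes and the noise of repeated spots only. That simulation held no spread between samples, so it cannot show how often a call would recur. Symbols and promoters came from RefSeq tables on GRCm38.p6, where all 36 members matched, and probe positions are mm9 as deposited. Python 3.11.15, numpy 2.4.6 and pandas 2.3.3 were used.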

Additional observations from a re-analysis of the deposited data

Results flagged for a closer look

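A probe of a member that was not chosen gave a signal on a urine array without being well above background on the PBS array in 2 cases. Of the Hk1 probes, A_55_P2744975, designed to an Ensembl transcript, read 9.02 intensity units with lpr urine and did not pass that call in the other samples. Of the Pfkl probes, A_55_P2938364 read 5.56 with MRL/MpJ urine, near the dimmest signal called well above background there (4.46). It was not well above background on the other arrays.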

How the results depend on the processing

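Scaling by array medians, the mean of a gene's measured probes and no background filter kept every count of members within 1.5 times and every median of members within the spot error, as 1.5-fold did for the counts, and no member past 2-fold changed its direction under any alternative. With MRL/MpJ urine against PBS, spike-in scaling gave 27 members lower and 1 higher (40.5% and 5.66% of all genes), with a median of -1.79. The median was -1.14 after quantile normalisation, -1.02 with normexp and -1.23 over the 30 brighter members. With lpr urine, spike-in scaling gave 26 lower and 0 higher (44.4% and 5.54% of all genes), with a median of -1.91. The median was -1.03 after quantile normalisation, -1.06 with normexp and -1.13 over the brighter members. Under normexp 1 member was higher with lpr urine, where 7.32% of all genes were. At 4-fold, 8 members were lower and 1 higher with MRL/MpJ urine (1.98% and 5.14% of all genes), and 9 and 0 with lpr urine (2.23% and 5.53%). Between the urines the median was -0.15 under spike-in scaling, and the 1 lower member, Eno2, dropped to 0 under normexp, among the 25 brighter members and at 4-fold. Fewer genes enter the brighter set; the cause of the other shifts was not tested. Over all genes, the share of higher among called genes was 60.3% (MRL/MpJ) and 60.7% (lpr), against 12.2% and 11.1% under spike-in scaling and 45.8% and 43.1% with normexp. Signals near background limit the size of differences for Hk2, Eno2, Pgam2 and Pgm2. The same limit holds for Egln3, Shmt1, Hif1an, Pdp1, Ppp1r3d, Slc16a7 and Slc16a10 of the lists, for which no normexp value is given. No paired analysis was possible because each group has 1 array, and no array could be left out.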
